A study of Mus musculus with 6 samples.

Results

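The genes described here are 35 genes of DNA break repair and its checkpoint, out of 34950 gene names on the array. They were chosen by name, as all probes whose gene name is one of the members or a synonym (Mre11a stands for Mre11), and the rule uses no measured value. By role they are 15 genes of homologous recombination, 10 Fanconi genes, 2 end joining genes, 2 mismatch repair genes and 6 genes of the checkpoint kinases. The cells were primary erythroid progenitors, the precursors of red blood cells, isolated from mouse fetal liver at embryonic day E14.5. A retrovirus carried a short hairpin RNA into them, and total RNA was taken after 3 days of culture with erythropoietin, dexamethasone and a medium conditioned with kit ligand. In the 3 shExosc8 samples the hairpin was directed against Exosc8, a core subunit of the RNA exosome, the complex that degrades and trims RNA from its 3' end. In the 3 shControl samples it was directed against luciferase, a gene that mouse cells lack, so both groups carried a virus and a hairpin. The design text says that erythroid maturation went on during the culture, and the title of the series asks which genes depend on Exosc8 in them. The strain of the mice and the hairpin sequences are not given in the sources used here, nor is it said if the replicates are different animals or cultures. The p-values therefore measure the spread among these 6 arrays alone, and that spread may be technical.

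A double-strand break can be repaired by homologous recombination, in which the ends are trimmed to single strands and restored by copying from the sister chromatid, or by end joining, in which the Ku heterodimer holds the ends for ligation. The Fanconi proteins form a core complex that attaches ubiquitin to the FANCD2 and FANCI pair and so starts the repair of crosslinks between DNA strands, and mismatch repair removes bases that replication paired wrongly. The kinases ATM and ATR sense breaks and single-stranded DNA, and pass the signal to the effector kinases CHK2 and CHK1, which halt the cell cycle. Fetal liver progenitors divide quickly, and inherited loss of the Fanconi pathway is known for failure of blood formation.

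Many genes of DNA replication and repair carry a site for E2F factors, which drive genes of the S phase, near their start, so the promoters of the members were searched for such letters. The search was chosen after the expression values had been seen. Promoter windows of 300 bases, from 250 before to 50 after a RefSeq transcription start (assembly GRCm38.p6), were found for 28 of the 35 members. The E2F-type motif TTTCCCGC, on either strand, stood in the windows of 7 of these 28 genes (25%), against 2.34% of the 10142 tested genes with a window. The 7 matches are shown because they are the sequence feature that the members share most often relative to other genes. Each is printed in the direction of transcription with 11 bases on each side, the match is in capitals, and GCGGGAAA is the same motif on the other strand.
Bard1: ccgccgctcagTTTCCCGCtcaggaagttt
Fancg: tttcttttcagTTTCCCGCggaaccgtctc
Chek2: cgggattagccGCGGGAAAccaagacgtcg
Brca2: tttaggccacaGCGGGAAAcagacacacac
Rad51c: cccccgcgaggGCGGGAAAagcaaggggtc
Xrcc6: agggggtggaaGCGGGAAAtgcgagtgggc
Msh6: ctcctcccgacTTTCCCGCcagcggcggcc

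On GRCm38.p6 these stretches lie at chr1:71103163-71103192 on the minus strand for Bard1, chr4:43010335-43010364 on the minus strand for Fancg, chr5:110839820-110839849 on the plus strand for Chek2 and chr5:150522442-150522471 on the plus strand for Brca2. Those of Rad51c, Xrcc6 and Msh6 lie at chr11:87404941-87404970 on the minus strand, chr15:82016312-82016341 on the plus strand and chr17:87975054-87975083 on the plus strand. The match begins before the start in 6 of the genes, from 209 bases upstream in Bard1 to 5 in Rad51c, where it runs across the start, and in Msh6 it begins 16 bases after it. The related form TTTGGCGC stood in 0 of the 28 member genes and in 1.13% of tested genes. The motif TTTGAA, bound by MuvB complexes at genes expressed later in the cell cycle, stood in 1 member (3.57%), Bard1, against 14.8% of tested genes. CCAAT, bound by the factor NF-Y, stood in 19 of 28 members (67.9%), against 43.3% of tested genes. All 4 motifs were searched as exact letters on both strands, and none of them contains another. A match describes these letters in this window and no binding was measured.

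Signal was measured on single-colour Agilent arrays, as spot brightness on a log2 scale that was set relative to the 75th percentile of measured probes on each array, and levels are given here as a percent of the geometric mean of the 3 shControl arrays for the same probe. Between 43.1% and 67.3% of non-control spots per array were well above background, the highest share being on shControl replicate 2. Exosc8 itself was at 40.4%, 40.0% and 57.4% in shExosc8 replicates 1 to 3 and at 98.5%, 97.8% and 104% in the controls (log2 fold change -1.14 ± 0.16 SE, limma adjusted p = 0.00555, n = 3 per group). An exact two-sided permutation test of these 6 values gave p = 0.1, the smallest that 3 against 3 allows. All arrays lay on 1 slide, with the shExosc8 arrays in row 2 and the controls in row 1, so that the group and the row of the slide cannot be told apart. The cells held their erythroid markers, with 11 of 11 of those on the array well above background on all 6 arrays, of which 3 were higher and 1 was lower in shExosc8. Their summed level was 122% to 185% of the control mean in shExosc8 and 88.2% to 107% in the controls. Markers of other blood cells moved with the group. The summed megakaryocyte markers were at 831% to 1135% in shExosc8 against 85.9% to 125% in the controls, and 8 of 8 passed the test. Neutrophil markers were at 320% to 432% against 90.8% to 111% (9 of 9 passed), macrophage markers at 193% to 248% against 85.4% to 113% (4 of 5 tested passed, with Mertk and Vcam1 above background on no array) and mast cell markers at 254% to 325% against 81.9% to 133% (3 of 4 tested passed, with Fcer1a, Ms4a2 and Tpsab1 above background on no array). Hepatocyte markers were at 141% to 188% against 94.3% to 110% (3 of 6 tested passed, with Apoh above background on no array), endothelial and stromal markers at 130% to 150% against 98.4% to 101% (2 of 4 tested higher and 1 lower, with Cdh5, Col1a1 and Col3a1 above background on no array) and lymphoid markers at 127% to 131% against 95.7% to 108% (1 of 6 tested passed). Their part in the repair gene values was not tested, and in bulk RNA fewer cells of a type and less RNA per cell cannot be told apart.

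More repair genes were lower than higher after the Exosc8 hairpin. The kinase Atm, the recombination gene Xrcc3 and the Fanconi core subunit Fancg fell most, to 46.3%, 56.1% and 56.2% of the control mean. The call of Fancg, whose probe is dim, did not hold under another background correction (normexp) with the 75th percentile. Palb2, Xrcc2 and Fanca were also among the calls lost in that setting. With normexp and quantile normalization the call of Fancg held. The recombination gene Rad51ap1 was the single member called higher. All 35 members passed the filter on dim probes, which kept probes well above background on every array of at least 1 group, and 34 were above background on all 6 arrays, Chek1 being so on 2 of the 3 shExosc8 arrays. With limma and Benjamini-Hochberg adjustment over all 18225 names tested, at a threshold of 0.05, 9 members were lower and 1 was higher, and 25 did not pass. The background was large: 13.8% of all names were called lower and 16.0% higher, so that 25.7% of members lower and 2.86% higher stand against those shares. Among the 12754 tested names found in a RefSeq gene table, the others keeping the name given on the array, 16.2% were lower and 16.4% higher. The median member had a log2 fold change of -0.30, or 81.2% of control, against -0.061 for all names tested and -0.10 for those in the RefSeq table. In all 29 members lay below 0 (82.9%), against 55.1% of all names. The 3 shExosc8 arrays lay entirely below the 3 controls in 17 members, entirely above in 1 and overlapped them in 17. Over all names, 28.4% were separate and lower and 23.2% separate and higher.

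The number that passed depended on the scaling and on single arrays. Of 5444 names called in all, 53.7% were higher. With the percentile taken over all probes that share was 37.1%, the median of all names was -0.21 and 15 members were lower with none higher, although Rad51ap1 had an unadjusted p under 0.05 (background 24.6% lower). With no normalization the share was 18.0%, the median of all names was -0.56, and 25 members were lower with none higher, also at an unadjusted p under 0.05 (background 41.2% and 9.04%). With another background correction (normexp) the share was 66.9%, the median of all names 0.039, and 4 members were lower and 1 higher (background 8.78% and 17.8%). Relative to the median of all names, the member median was -0.24 as reported and -0.27 after normexp. It was also -0.24 in the first 2 of these settings, which shift all names on an array alike, so there it could not change. With normexp and quantile normalization it was -0.17. With 1 array left out it ran from -0.14 without shExosc8 replicate 2 to -0.35 without shExosc8 replicate 3. Leaving out 1 array left 3 to 5 members lower and 0 higher for each array except shExosc8 replicate 3, with backgrounds of 3.79% to 6.13% lower and 9.06% to 12.9% higher and Rad51ap1 at an unadjusted p under 0.05 each time. Without shExosc8 replicate 3, 18 members were lower and 1 higher, against backgrounds of 22.2% and 22.7%, and these 18 held all 9 of the members called with every array.

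**Figure D1:**
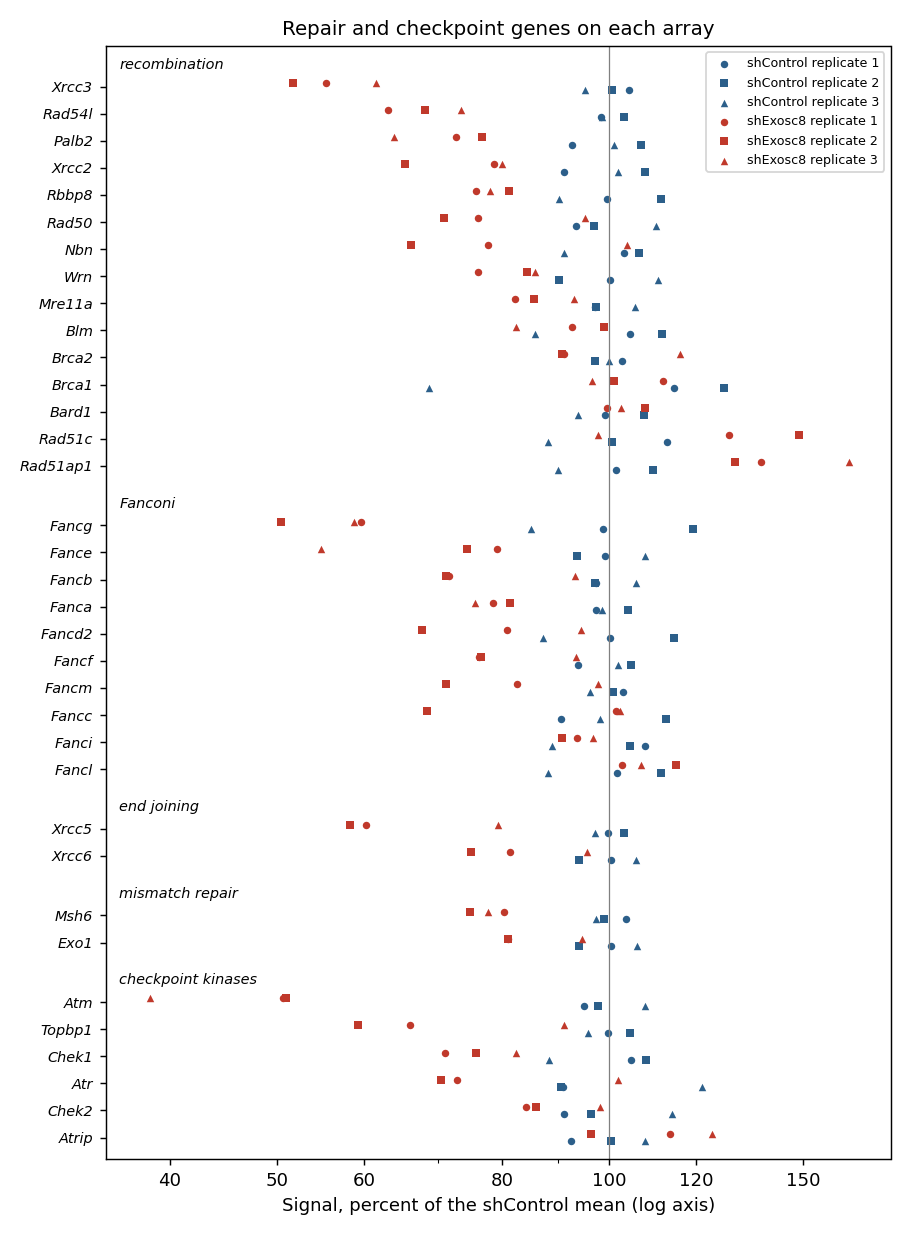
Signal of each of the 35 genes on each array, as a percent of the geometric mean of the 3 shControl arrays (horizontal log axis), in blue for shControl and red for shExosc8 with 1 marker shape per replicate number. The 3 red points lie left of all blue points in 17 genes and right of them in Rad51ap1, and Atm reaches the lowest value, 38.4%, in shExosc8 replicate 3.

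**Figure D2:**
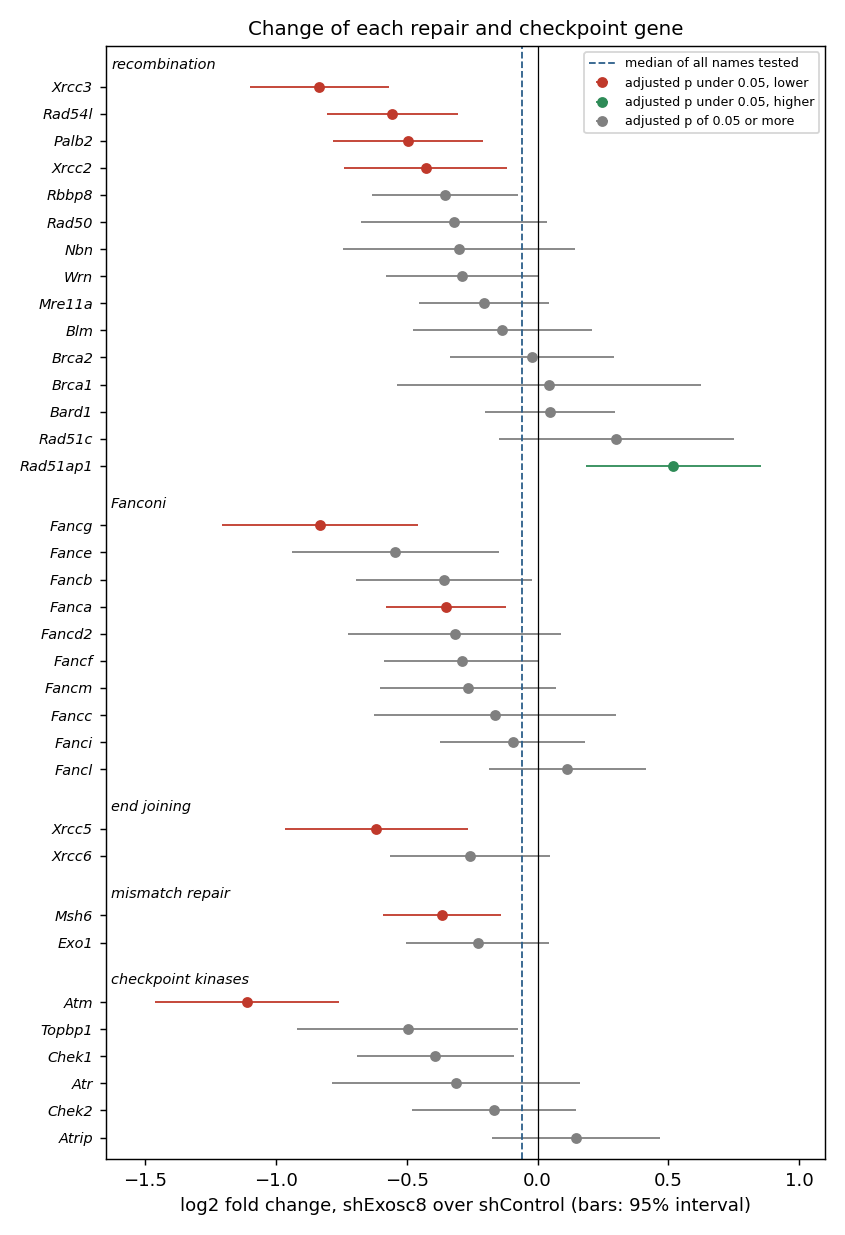
The log2 fold change of each gene in shExosc8 over shControl (points) with its 95% interval from limma (bars, n = 3 per group). The 9 genes that passed the adjusted threshold lower are in red, Rad51ap1 in green, the others in grey, and the dashed line marks the median of all names tested at -0.061.

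In the recombination group 4 of 15 genes were lower and 1 was higher, with a median log2 fold change of -0.29. These are 26.7% and 6.67%, against 13.8% and 16.0% of all names. Xrcc3, which works in a complex with the product of Rad51c, was at 55.5%, 51.7% and 61.5% of the control mean in shExosc8 replicates 1 to 3 and at 104%, 101% and 95.2% in the controls. Each shExosc8 array was thus far below each control (log2 fold change -0.83 ± 0.11 SE, limma adjusted p = 0.00426), and leaving out any 1 array kept the adjusted p at or below 0.0262. On the build mm9 its probe spans chromosome 12, bases 113041404 to 113041463.

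Rad54l, a DNA translocase that helps a broken strand invade the template, was at 63.0%, 68.1% and 73.4% in shExosc8 and at 98.3%, 103% and 98.6% in the controls. The groups were well apart (log2 fold change -0.55 ± 0.10 SE, limma adjusted p = 0.0124), yet the adjusted p passed 0.05 when shExosc8 replicate 1, shControl replicate 1 or shControl replicate 3 was left out, reaching 0.0563. Palb2, the bridge between BRCA1 and BRCA2, was at 72.8%, 76.8% and 63.9% against 92.6%, 107% and 101% (log2 fold change -0.50 ± 0.12 SE, limma adjusted p = 0.0261). That call ended, at up to 0.0892, without shExosc8 replicate 1 or any 1 of the controls. Xrcc2, which acts in recombination in another complex, was at 78.6%, 65.3% and 80.0% against 91.1%, 108% and 102%. It lay just inside the threshold (log2 fold change -0.43 ± 0.13 SE, limma adjusted p = 0.0496) and lost the call, at up to 0.145, without any 1 array other than shExosc8 replicate 3.

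Rad51ap1, which promotes the joining of the 2 DNA molecules, went the other way. It was at 137%, 130% and 165% in shExosc8 and at 102%, 110% and 89.9% in the controls, with no overlap (log2 fold change 0.52 ± 0.14 SE, limma adjusted p = 0.0348). The call was lost, at up to 0.116, without any 1 array other than shExosc8 replicate 3, and with no normalization between arrays its log2 fold change was 0.021. Rad51c, whose product pairs with XRCC3, was at 129%, 149% and 97.8% against 113%, 101% and 88.1%. The 2 groups overlap there (log2 fold change 0.30, limma adjusted p = 0.247, and -0.20 with no normalization).

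The genes of end resection, which trim a break to single strands, had values below 0 but did not pass. Rbbp8, which encodes the resection factor CtIP, was at 75.8%, 81.2% and 78.0% against 99.6%, 111% and 90.1%, with no overlap (log2 fold change -0.35, limma adjusted p = 0.0615). The MRE11, RAD50 and NBN proteins form 1 complex that binds the ends and recruits ATM. The log2 fold changes of their genes were -0.20 for Mre11a, -0.32 for Rad50 and -0.30 for Nbn, with limma adjusted p of 0.169, 0.139 and 0.243. For Nbn, replicates 1 and 2 of shExosc8 were at 77.8% and 66.1% while replicate 3 was at 104%, inside the control range of 91.1% to 106%. The RecQ helicase genes Wrn and Blm, whose proteins unwind recombination intermediates, were at -0.29 and -0.14 (limma adjusted p = 0.113 and 0.485).

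The breast cancer genes Brca1 and Brca2 and the partner gene Bard1 had small differences between the groups. The probe of Brca1, which encodes a ubiquitin ligase that promotes resection, is dim. Its mean log2 signal relative to the scaling percentile was -5.06 in shExosc8 and -5.10 in shControl. Brca1 was at 112%, 101% and 96.6% in shExosc8 and at 115%, 127% and 68.7% in the controls. The control arrays therefore spread more widely than the shExosc8 arrays did, and the difference was 0.044 on the log2 scale (limma adjusted p = 0.902, 95% interval -0.54 to 0.62), with a negative sign under all the other scalings tried but 1. Bard1, the partner of BRCA1, differed by 0.047 (limma adjusted p = 0.747), also negative with the percentile over all probes, with the median and with no normalization. Brca2, a mediator of strand exchange, differed by -0.021 (limma adjusted p = 0.914). The difference between Palb2 and these genes was not tested.

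Among the 10 Fanconi genes 2 were lower (20%, against 13.8% of all names), with a median log2 fold change of -0.30. None was higher (16.0% of all names), at an unadjusted p under 0.05 as well. Fancg, a scaffold subunit of the core complex, was at 59.6%, 50.5% and 58.8% in shExosc8 and at 98.7%, 119% and 85.1% in the controls. All shExosc8 arrays lay below all controls (log2 fold change -0.83 ± 0.15 SE, limma adjusted p = 0.0124). The call held without any 1 array, at 0.0157 to 0.0492. After normexp with the 75th percentile the change was -0.38 with a limma adjusted p of 0.0771. With normexp and quantile normalization it was -0.63 (limma adjusted p = 0.0224). The probe of Fancg lies on chromosome 4 between 43016751 and 43017436 of mm9. It is dim, with a mean log2 signal relative to the scaling percentile of -4.65 in shExosc8 and -3.82 in shControl. Fanca, the core subunit most often mutated in Fanconi anaemia, was at 78.5%, 81.4% and 75.6% against 97.5%, 104% and 98.6% (log2 fold change -0.35 ± 0.095 SE, limma adjusted p = 0.0367). Both groups were narrow and apart, and the call was lost, at up to 0.122, without any 1 array other than shExosc8 replicate 3.

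Fance, the core subunit that contacts FANCD2, was just outside the threshold with a larger change than Fanca. It was at 79.2%, 74.4% and 54.8% against 99.2%, 93.5% and 108%, with no overlap (log2 fold change -0.54, limma adjusted p = 0.0501). The other core subunit genes had log2 fold changes of -0.36 for Fancb, -0.29 for Fancf, -0.16 for Fancc and 0.11 for Fancl, the ubiquitin ligase subunit (limma adjusted p from 0.095 to 0.534). The value for Fancl was negative with the percentile over all probes, with no normalization and with its probes averaged. Fancm, which anchors the core complex on DNA, was at -0.27 (limma adjusted p = 0.182). The ubiquitinated pair differed by -0.32 for Fancd2 and -0.095 for Fanci (limma adjusted p = 0.187 and 0.546). In all, 9 of the 10 Fanconi genes were below 0 (55.1% of all names) and 5 had shExosc8 arrays entirely below the controls (28.4% of all names).

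The 2 end joining genes encode the Ku heterodimer, and 1 of them passed, as lower (50%, against 13.8% of all names). Xrcc5, the larger subunit, was at 60.2%, 58.2% and 79.3% in shExosc8 and at 99.8%, 103% and 97.1% in the controls. The groups did not overlap (log2 fold change -0.62 ± 0.14 SE, limma adjusted p = 0.0244), and the call was lost, at up to 0.0918, without any 1 array other than shExosc8 replicate 3. Xrcc6, the smaller subunit, was at 81.4%, 75.1% and 95.6% against 101%, 93.9% and 106%. Replicate 3 of shExosc8 lay within the control range there (log2 fold change -0.26, limma adjusted p = 0.16).

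Of the 2 mismatch repair genes 1 passed, as lower (50%, against 13.8% of all names). This gene, Msh6, whose protein recognises mismatches, was at 80.4%, 74.9% and 77.8% in shExosc8 and at 104%, 99.1% and 97.4% in the controls. The shExosc8 values were close to each other and apart from the controls (log2 fold change -0.36 ± 0.094 SE, limma adjusted p = 0.0321), and the call was lost, at up to 0.121, without any 1 array other than shExosc8 replicate 3. Exo1, an exonuclease of mismatch repair and of end resection, was at 81.1%, 81.0% and 94.5% against 100.4%, 94.0% and 106%. Its groups overlap by 1 array (log2 fold change -0.23, limma adjusted p = 0.163).

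In the checkpoint group 1 of 6 genes passed, as lower (16.7%, against 13.8% of all names), and it had the largest change of the 35. Atm, the kinase that answers double-strand breaks, was at 50.7%, 51.0% and 38.4% in shExosc8 and at 95.0%, 97.7% and 108% in the controls. Every shExosc8 array was thus near or below 51% (log2 fold change -1.11 ± 0.15 SE, limma adjusted p = 0.00421), and leaving out any 1 array kept the adjusted p between 0.00273 and 0.024. On mm9 the probe that stands for Atm spans chromosome 9, bases 53245871 to 53245930. Atr, the kinase that answers single-stranded DNA at stalled forks, was at -0.31 (limma adjusted p = 0.257), with replicate 3 of shExosc8 at 102% and replicates 1 and 2 at 72.9% and 70.5%. The difference between Atm and Atr was not tested.

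The probe of Chek1, the effector kinase of ATR, is dim. Its mean log2 signal relative to the scaling percentile was -6.58 in shExosc8 and -6.19 in shControl. Chek1 was at 71.0%, 75.9% and 82.5% in shExosc8 and at 105%, 108% and 88.3% in the controls. The groups did not overlap and the test did not pass (log2 fold change -0.39, limma adjusted p = 0.0575), and after normexp the value was 0.017. Topbp1, which activates ATR, was at 66.1%, 59.3% and 91.0% against 99.9%, 105% and 95.8%. Replicates 1 and 2 of shExosc8 are low there and replicate 3 is below but close to the controls (log2 fold change -0.50, limma adjusted p = 0.0742). Chek2, the effector kinase of ATM, and Atrip, the partner of ATR, differed by -0.17 and 0.15 (limma adjusted p = 0.355 and 0.42), the latter being negative with no normalization.

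The array carried 48 probes for the 35 genes, and 45 passed the filter. More than 1 measured probe was available for 9 genes, with 19 probes between them, and in 7 of these all probes lay on the same side of 0. In a fit over single probes, in which 13.2% of 24833 probes were lower and 14.7% higher, both probes of Atm and both probes of Palb2 were lower. The second probe of Atm, on chromosome 9 at 53256167 to 53256226 of mm9, was at 40.3%, 47.1% and 77.4% in shExosc8 and at 93.0%, 114% and 94.2% in the controls (log2 fold change -0.92 ± 0.25 SE, limma adjusted p = 0.0406). It places shExosc8 replicate 3 highest of the 3, whereas the first probe places it lowest. The second probe of Palb2 was at 64.0%, 63.9% and 60.0% against 93.1%, 108% and 99.4% (log2 fold change -0.68 ± 0.11 SE, limma adjusted p = 0.00798).

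Other probes set limits to single values. The first probe of Xrcc2 did not pass in the fit over probes (limma adjusted p = 0.0538), and its second probe differed by -0.17 (limma adjusted p = 0.447). For Rad50 the second probe differed by -0.67, more than the first at -0.32, and neither passed. Fance had -0.54 and -0.49, Fancc -0.16 and -0.31, and Atr -0.31 and -0.25. The probes of Fancl, at 0.11 and -0.19, and the 3 of Bard1, at 0.047, -0.097 and 0.091, lay on both sides of 0. The second probes of Wrn, Fanca and Fanci were too dim to be kept.

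**Figure D3:**
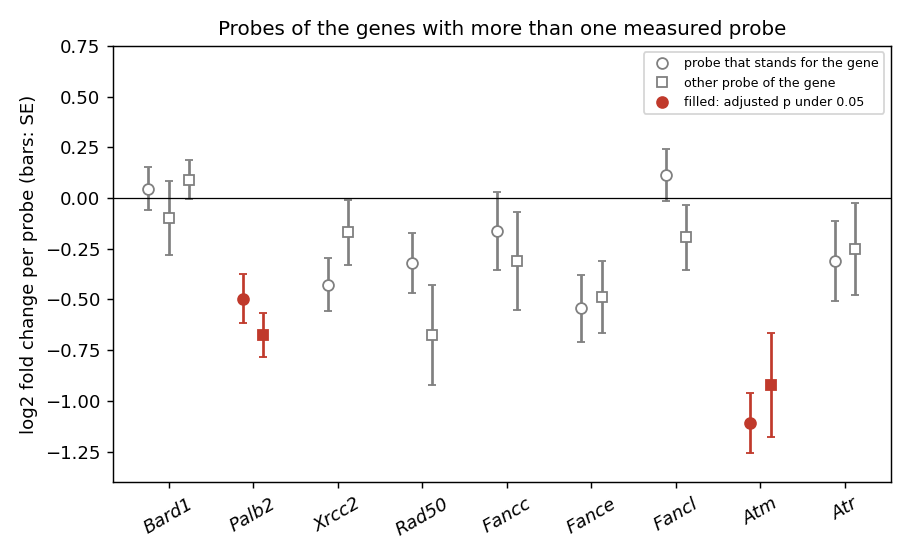
The log2 fold change of each measured probe, shExosc8 over shControl, with its SE (bars, n = 3 per group), for the 9 genes with more than 1 measured probe. Circles are the probe that stands for the gene, squares its other probes, and filled red marks passed the adjusted threshold in the fit over probes, which holds for both probes of Atm and of Palb2.

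The replicates did not shift equally. The median over the 35 genes, as log2 signal minus the control mean, was -0.34 in shExosc8 replicate 1, -0.40 in replicate 2 and -0.098 in replicate 3, and -0.0029, 0.045 and -0.025 in the controls. For all names the same medians in shExosc8 were -0.066, -0.0098 and -0.067. The scaling of each array to a percentile of its own probes holds these medians near each other. Their spread can therefore not be compared with that of the 35 genes. In 21 of the 29 members below 0, replicate 3 was the highest of the shExosc8 arrays. Among the others, Atm, Palb2 and Fance were lowest in replicate 3 on the probes that stand for them. Replicate 3 also had the highest Exosc8 level of the 3, as given above, and a relation of that level to the repair gene values was not tested. Arrays also differ by their column on the slide, and columns 2 and 3 hold 1 array of each group. Within column 2 the median of the members was -0.37, with 30 of 35 below 0, against a median of 0.021 for all names. Within column 3 it was -0.14, with 28 of 35 below 0, against -0.085 for all names, so the members lay closer to all names there. The share of all names below 0 was not taken within each column. Atm differed by -0.90 and -1.35 within these columns, Xrcc3 by -1.01 and -0.71 and Fancg by -0.97 and -1.02. With the column as a block in limma, which leaves 1 residual degree of freedom, no member passed, 3 were lower and 0 higher at an unadjusted p under 0.05, and 0.219% of all names passed lower and 2.72% higher.

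The other genes of the same pathways were taken from a list of 89, of which 87 were tested. The list was chosen with earlier results of these data known, so it is not an independent check. Here 21 were lower (24.1%) and 1 was higher (1.15%), against 13.8% and 16.0% of all names. Of the 87, 74 lay below 0 (85.1%, against 55.1% of all names), and the median log2 fold change was -0.28, close to that of the 35 members. Of these 22 calls, those of Trp53 and Trp53bp1 held without any 1 array. With the percentile over all probes 42 passed, while 7138 of all 18225 names did, against 5444 as reported. Without single arrays 2 to 7 passed, beside 2356 to 3280 of all names, except without shExosc8 replicate 3. There 41 passed, beside 8418 of 18768 names, so these counts moved along with those over all names.

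The checkpoint list held the clearest of these values, with 6 of 23 lower and 1 higher (26.1% and 4.35%, against 13.8% and 16.0% of all names). Trp53, the tumour suppressor that ATM activates, was at 54.3%, 44.9% and 59.6% in shExosc8 and at 98.4%, 102% and 99.9% in the controls (log2 fold change -0.93 ± 0.13 SE, limma adjusted p = 0.00525). Trp53bp1, whose protein protects broken ends from resection, was at 174%, 155% and 148% against 96.5%, 106% and 97.6%. It is thus clearly above the controls (log2 fold change 0.67 ± 0.11 SE, limma adjusted p = 0.00835). Hus1, a subunit of the clamp that activates ATR, differed by -0.93, Rad17, which loads that clamp, by -0.42, and Etaa1, another activator of ATR, by -0.55. Cdc25a, the phosphatase that the checkpoint removes, differed by -0.63 and Telo2, which stabilises ATM and ATR, by -0.56. For these 5 genes the limma adjusted p ran from 0.0184 for Rad17 to 0.0383 for Telo2.

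End joining and single-strand break repair had 8 of 16 lower (50%, against 13.8% of all names), with a median of -0.40. None was higher (16.0% of all names), also at an unadjusted p under 0.05. Xrcc1, the scaffold of single-strand break repair, was at 56.4%, 44.1% and 68.5% against 95.5%, 103% and 101%. Parp1, the enzyme that marks breaks with ADP-ribose chains, was at 59.4%, 46.5% and 71.6% against 95.1%, 107% and 98.2%. Both were clearly below the controls on each array (log2 fold changes -0.85 and -0.78, limma adjusted p = 0.0161 and 0.0211). Prkdc, the kinase recruited by Ku, differed by -0.48, the end-processing nuclease Dclre1c by -0.49, Parp2 by -0.46, the polymerases Polq and Polm by -0.45 and -0.40, and Aptx, which cleans blocked ends, by -0.40 (limma adjusted p from 0.0223 to 0.0469).

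The remaining lists had fewer calls, beside 13.8% of all names called lower and 16.0% higher. In recombination 5 of 30 were lower and none higher, also at an unadjusted p under 0.05. They were Tonsl, which acts at stalled forks, by -0.78, the helicase Helq by -0.47, Rad54b by -0.46, Rpa3, a subunit of the complex that coats single strands, by -0.46, and the nuclease scaffold Slx4 by -0.42 (limma adjusted p from 0.0144 to 0.0377). In the Fanconi list 1 of 12 was lower, the nuclease subunit Ercc4 at -0.48 (limma adjusted p = 0.0301), and the next by p was the polymerase Rev1 at -0.84 (limma adjusted p = 0.0949). In mismatch repair 1 of 6 was lower, Msh3 at -0.36 (limma adjusted p = 0.0333), followed by Pms2 at -0.43 (limma adjusted p = 0.0542).

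Genes of proliferation, measured because repair genes are expressed most in dividing cells, had 2 of 26 tested genes lower and 2 higher, with a median of -0.22. Each count is 7.69%, against 13.8% lower and 16.0% higher of all names. That balance depended on the scaling, with 10 lower and 2 higher with the percentile of all probes, and 14 lower and 0 higher with no normalization. With 1 array left out, 0 to 2 were lower and 0 to 3 higher, beside 3.79% to 22.2% and 9.06% to 22.7% of all names. The replication licensing genes Cdc6 and Mcm2 differed by -0.61 and -0.31 (limma adjusted p = 0.0127 and 0.049). Rrm2, the small subunit of ribonucleotide reductase, and the S phase factor E2f2 differed by 0.85 and 1.07 (limma adjusted p = 0.0298 and 0.0286). On the separate arrays the median of this list was -0.18, -0.18 and -0.19 in shExosc8 and 0.080, 0.061 and -0.14 in the controls. Replicate 3 of shExosc8, which was the least shifted array for the repair genes, was not so for this list. Its part in the repair gene values was not tested.

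**Figure D4:**
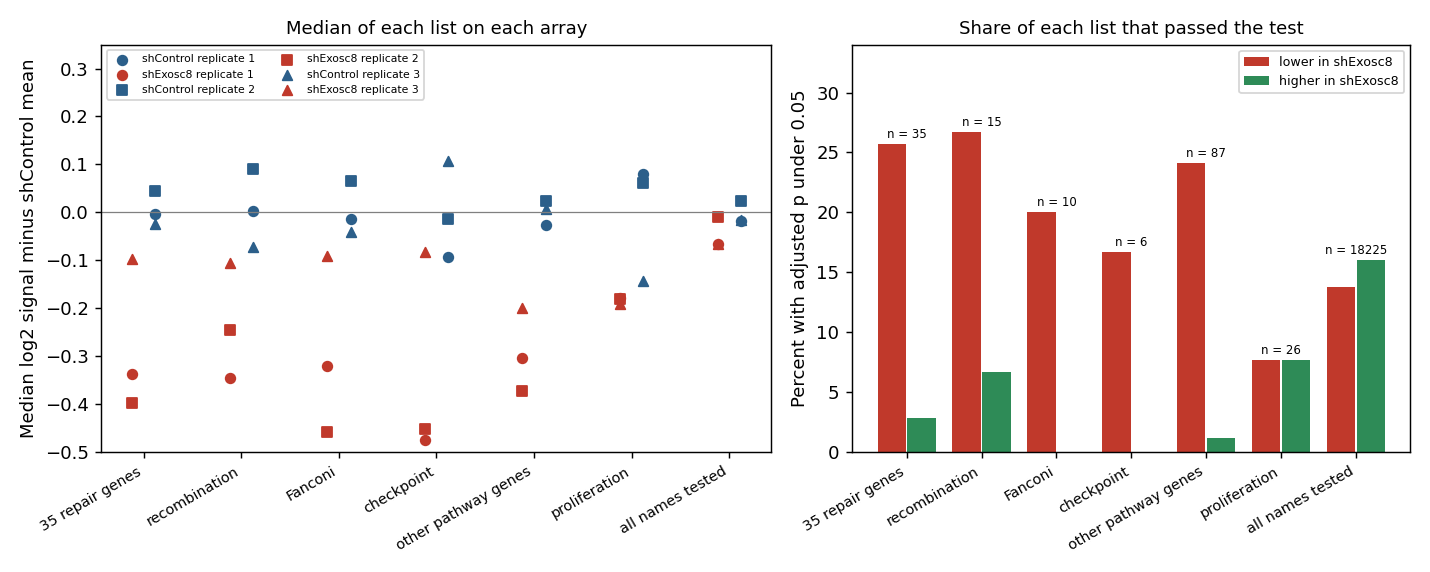
Left, the median over the genes of each list of log2 signal minus the shControl mean, on each of the 6 arrays (blue shControl, red shExosc8, marker shape by replicate number). Right, the percent of the tested genes in each list, whose number is given above the bars, that passed the adjusted threshold lower (red) and higher (green), from 25.7% and 2.86% for the 35 repair genes to 13.8% and 16.0% for all names tested.

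The promoter motifs can be set beside the change of each gene, with no test. TTTCCCGC stood in 2 of the 8 lower members with a window (25%), Fancg and Msh6, and in 5 of the 19 that did not pass (26.3%). CCAAT stood in 7 of these 8 and in 11 of these 19. The 7 genes whose matches are printed above ran from -0.83 for Fancg to 0.30 for Rad51c.

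A position shared by many members is a start site that faces another gene. A second gene starting within 1000 bases in the opposite direction was found for 11 of the 28 members with a window (39.3%), against 19.2% of the tested genes. This feature too was looked at after the values had been seen. The facing gene was tested for 7 of them and passed for 4, while 29.9% of all names passed in either direction. Whether these counts differ was not tested. Palb2 and Dctn5, whose starts lie 95 bases apart, were both lower (-0.50 and -0.43, limma adjusted p = 0.0261 and 0.0312). Xrcc3 was lower while Zfyve21, 291 bases away, was higher (-0.83 and 0.39, limma adjusted p = 0.00426 and 0.0328). Brca1 did not pass while Nbr1, 152 bases away, was higher (0.044 and 0.77, limma adjusted p = 0.902 and 0.0171). Xrcc6 did not pass while Desi1, 149 bases away, was lower (-0.26 and -0.41, limma adjusted p = 0.16 and 0.0356). The facing genes of Fancb, Mre11a and Rad51ap1, which are Mospd2, Ankrd49 and D6Wsu163e, did not pass (0.068, -0.39 and -0.42).

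In the authors' deposited table of the same comparison, 2 of the 35 genes had an adjusted p under 0.05, Atm at a log2 fold change of -1.28 (p = 0.0382) and Xrcc3 at -0.87 (p = 0.043). The authors' deposited table called 1.19% of the 18225 names lower and 6.13% higher. Its median over the 35 genes was -0.28, against -0.11 over all names, so the members lay -0.17 from the median of all names there.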

How the data were processed

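Per the file headers, the deposited spot intensity values come from Agilent Feature Extraction 10.7.3.1. The software took off a spatial background, corrected trends across the array and set surrogates for values near 0. Its flags for spots well above background or outlying were read from the same deposited files, whose probe coordinates are on mm9. The authors' deposited table adds log2 fold changes and p-values, for which the submitters' processing notes name limma, with a normalization not given in the sources used here.

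Flagged outlier spots and control spots were left out, and spots of a probe were averaged on the log2 scale. The 75th percentile of each array, over the 21613 of 55660 probes well above background on all 6 arrays (38.8%), was subtracted, since a percentile over all probes would follow the undetected ones. A probe was kept if every array of either group had it well above background (24833 probes), and the probe with the highest mean stood for a gene. Accessions in the files were matched to RefSeq names without versions. Groups were compared with limma 3.58.1 (R 4.3.3, lmFit and eBayes, two-sided), with p adjusted by Benjamini-Hochberg over 18225 names. The number of arrays limits the precision. Pairs of arrays correlated at 0.983 to 0.996 across names within groups and at 0.948 to 0.974 between groups. Alternatives were 5 other scalings or background corrections, 2 other filters, averaged probes, blocks, another variance model and leaving out arrays.

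The members and lists were chosen with earlier results of these data known. Members that passed, and the 2 with the smallest p in each role group, are given by array; of each other list those that passed are named, and at least 2. Other values given by array were chosen after they were seen. On simulated data with 18225 genes and the spread of this comparison, limma was tested on 100 genes shifted by a log2 of 1, of which it found 33, and on 100 shifted by 0.5, of which it found 1, with 1 false call. Before adjustment, 90 and 75 of them had a p under the threshold. Only 100 genes were shifted there, while 5444 names were called in the data. The adjustment was therefore stricter in the simulation, and its shares found do not carry over to the data. The values of some single genes are left out of the text.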

Additional observations from a re-analysis of the deposited data

How the results depend on the processing

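The count of members that passed (10, of them 9 lower and 1 higher) was 25, all lower, with no normalization between arrays, 5 (4 lower) with normexp and the 75th percentile, 2, both lower, with no filter on dim probes (1.05% of all names lower), and 0 with the slide column as a block. It was 2, both lower, in the authors' deposited table. Leaving out 1 array gave 3 to 19 members, 3 to 18 lower and 0 to 1 higher. Samples of the 2 groups share replicate numbers, and no label says that a number marks a pair. The deviations of same-numbered samples from their group means correlated at 0.0358, 0.219 and 0.303 across names, and those of differently numbered samples at -0.261 to 0.166, the highest being shExosc8 replicate 1 with shControl replicate 2. Since 1 same-numbered pair was under 0.1, the numbers were not taken as pairs, and whether they are remains unknown. With the replicate block 6 members passed, all lower (13.5% of all names lower), with 0 higher and 1 higher at an unadjusted p under 0.05. With the percentile over all probes 15 members were lower and 0 higher. The median of the members, -0.30, was -0.45 with that percentile and -0.80 with no normalization. Members with groups that do not overlap, 18 as reported (51.6% of all names), were 31 with no normalization (68.1%), 28 without shExosc8 replicate 3 (70.7%), and 30 without shExosc8 replicate 3 and shControl replicate 2 (77.1%), a setting added after seeing the data. The other pathway genes that passed were 22 as reported (5444 of 18225 names), 42 with the percentile over all probes (7138) and 62 with no normalization (9164). They were 1 with no filter (1818 of 34950 names), 0 with the column block (536 of 18225) and 2 in the authors' deposited table (1333 of 18225). Leaving out 1 array gave 2 to 41 of these genes (2356 to 8418 of all names). Exosc8 fell by 1.03 with the column block (limma adjusted p = 0.124), and fell by 1.06 in the authors' deposited table (adjusted p = 0.073). The cause of these shifts was not tested. The fewer arrays or residual degrees of freedom in the settings that leave out or block arrays come with their construction.

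Over 629 values of single members under 18 alternatives, 22 changed sign, in 9 members, and none of these had passed or passed then. Brca1, at 0.044, was -0.10 with the percentile over all probes, -0.0046 with the median, -0.45 with no normalization, -0.15 with normexp and quantile normalization, -0.29 with the column block, and -0.23 to 0.26 with arrays left out. The authors' deposited table gives -0.23 for it. Brca2 was 0.037 with the column block, and -0.16 to 0.040 with arrays left out. Bard1 was -0.099, -0.0017 and -0.45 with the first 3 of these scalings and -0.00012 to 0.11 with arrays left out. With no normalization Rad51c was -0.20, Fancl -0.38 and Atrip -0.35. Fancl was also -0.032 with the percentile over all probes and -0.040 with probes averaged. Chek1 was 0.017 with normexp and the 75th percentile. With arrays left out, Fancc ran from -0.26 to 0.029 and Blm from -0.25 to 0.017. Of the 10 members that passed, Atm and Xrcc3 did so in 17 of 18 alternatives, Fancg in 15, Rad54l in 13, Xrcc5 in 11, Palb2 in 10, Rad51ap1 in 8, and Xrcc2, Fanca and Msh6 in 7.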
